A study of Homo sapiens with 12 samples.

Results

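Regions of H3K27ac were sought whose presence in peak lists differed from untreated cells in the same direction under both treatments. The lists came from 6 CUT&RUN libraries of HCT116, a human colorectal cancer cell line. Presence rests on a limit of rank, so a call does not measure a change in signal. From every library the top 20000 peaks by score were taken and merged within 100 bp into 38598 regions, and a library held a region if any of its 20000 peaks overlapped it. Regions held by all 4 treated libraries and neither untreated library were called shared gained, and there were 218 of them, or 0.565% of all regions. Regions held by both untreated libraries and no treated library were called shared lost, and there were 129 of them, or 0.334% of all regions. A further 7931 regions were held by all 6 libraries. The untreated cells received no agent, and the treated cells were exposed for 24 hours to 1 μM cobimetinib or to 100 ng/ml TNFα, with 2 replicates per condition. The study's methods call the replicates treatment replicates, and the labels do not say whether they came from separate cultures. The p-values below only place the untreated pair among the 15 pairs of these libraries. Those pairs also differ in treatment, and the technical share of their differences is not known. The IgG control libraries were not analysed here, and the sequencing depth is unknown from peak lists.

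H3K27ac marks active promoters and enhancers and is deposited mainly by the acetyltransferases p300 and CBP. Cobimetinib inhibits MEK1, a kinase of the MAPK pathway whose output includes the AP1 transcription factors, dimers of FOS and JUN family proteins. TNFα is an inflammatory cytokine that activates NF-κB and also, through the JNK and p38 kinases, AP1. One agent was chosen to inhibit MAPK/AP1 signaling and the other to stimulate it, and the comparison asks whether regions nevertheless moved together. CUT&RUN profiles a population of cells, so fewer cells carrying the mark and less mark per cell cannot be told apart.

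Untreated replicate 2 stood apart from the other 5 libraries. The median width of its 20000 highest peaks was 380 bp, against 922 to 1265.5 bp in the other 5 libraries, and 29.1% of them were at start sites, meaning 1 kb or less from where a coding transcript begins, against 40.4 to 46%. Its peak names mark it as merged after resequencing. Its list held 124771 peaks, against 69813 to 115572 in the others, and 7102 of its peaks had the same score of 44 at the limit of 20000, where the other lists had 332 to 533 peaks with equal scores. Its part in the results was not tested apart from the values given without it. As a check of the cell type, 11 of 12 epithelial marker genes had a region at their start site in at least 1 library, with KRT8, CLDN4, GRHL2, ELF3 and KLF5 held by all 6 and CDH1 by none. Of the other epithelial markers, EPCAM, CLDN7 and ESRP1 were held by 5 libraries, KRT18 and CLDN3 by 3 and KRT19 by 1. Of 8 immune, 8 fibroblast and 8 endothelial markers, 1 in each list had such a region in any library. These were CD68 in 4 libraries, COL1A1 in all 6 and PECAM1 in 2.

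The sequences of 3 distal regions of each set are shown because, among regions away from start sites and UTRs, these had the highest-scoring peaks on average in the libraries holding them. Each is 200 bases of the plus strand of hg38, centred on the AP1 word nearest the middle of the stretch shared by the holding libraries, or on that middle where there was no AP1 word. Capitals mark an AP1 word (TGACTCA or TGAGTCA, which are reverse complements of each other). No window held an NF-κB word. In windows with no AP1 word, capitals mark the pentamer GAATG or its reverse complement CATTC, which is the unit of human satellites II and III, and the lost windows near ADRA2C and FAM25C held neither.
Gained region far from SLC38A2, chr12:46553464-46553663: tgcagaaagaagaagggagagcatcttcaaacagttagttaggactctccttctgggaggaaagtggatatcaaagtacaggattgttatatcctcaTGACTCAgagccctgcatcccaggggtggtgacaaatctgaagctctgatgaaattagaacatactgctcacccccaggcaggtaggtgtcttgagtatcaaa
Gained region far from ITGA4, chr2:181393464-181393663: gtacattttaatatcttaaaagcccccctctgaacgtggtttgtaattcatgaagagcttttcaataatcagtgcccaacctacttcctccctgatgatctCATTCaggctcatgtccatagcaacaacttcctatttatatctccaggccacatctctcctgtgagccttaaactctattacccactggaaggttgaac
Gained region near the chromosome 16 centromere, chr16:34586754-34586953: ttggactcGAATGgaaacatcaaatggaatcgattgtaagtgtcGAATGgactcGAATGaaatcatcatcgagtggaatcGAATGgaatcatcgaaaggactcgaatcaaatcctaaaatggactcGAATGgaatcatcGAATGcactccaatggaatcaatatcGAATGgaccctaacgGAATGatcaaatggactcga
Lost region near ADRA2C, chr4:3815027-3815226: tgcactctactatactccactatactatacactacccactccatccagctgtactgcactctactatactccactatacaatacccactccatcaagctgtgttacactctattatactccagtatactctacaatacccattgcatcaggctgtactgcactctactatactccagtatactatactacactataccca
Lost region far from TNFRSF13B, chr17:16861210-16861409: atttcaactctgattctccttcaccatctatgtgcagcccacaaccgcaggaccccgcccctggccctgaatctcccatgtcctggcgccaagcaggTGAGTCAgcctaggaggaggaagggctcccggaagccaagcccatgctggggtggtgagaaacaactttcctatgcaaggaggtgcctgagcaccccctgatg
Lost region near FAM25C, chr10:47986883-47987082: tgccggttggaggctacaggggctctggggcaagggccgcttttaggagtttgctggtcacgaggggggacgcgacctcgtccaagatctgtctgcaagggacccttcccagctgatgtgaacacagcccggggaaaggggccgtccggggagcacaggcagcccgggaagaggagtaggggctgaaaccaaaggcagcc
Of the 6 windows, 1 in each set held an AP1 word, and these were placed on it. For scale, over all 38598 regions, the central 200 bp held an AP1 word in 11.3% and an NF-κB word in 3.59%. The pentamers covered 20% of the bases in the chromosome 16 window and 2.5% of the window far from ITGA4. Over whole regions they covered over 20% of the bases in 2 of the 218 shared gained regions, in 0 of the 129 shared lost regions and in 0.495% of all regions. The other such gained region, on chromosome 10 at 41846260 to 41846566, ranked 17183 and 1368 with cobimetinib, 10714 and 4378 with TNFα and 27845 in untreated replicate 2, and untreated replicate 1 had no peak there.

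The first question was whether the treated libraries shared more gains or losses than any 4 of these 6 libraries would against the other 2. The same counts were therefore made for all 15 pairs of libraries. The 129 shared lost regions were fewer than the regions held only by the pair in 10 of the other 14 pairs, whose counts ran from 70 to 945 (one-sided exact permutation test over the 15 ways of drawing 2 of 6 libraries, p = 0.733, adjusted p = 0.8). The 218 shared gained regions were exceeded by 5 of the other pairs, whose counts ran from 35 to 652 (exact permutation p = 0.4, adjusted p = 0.8). The smallest p this design allows is 0.0667, so it could not reach 0.05. The largest counts of regions held only by a pair belonged to the 2 cobimetinib replicates, with 945, and the 2 TNFα replicates, with 878. The untreated replicates did not stand out in this way from mixed pairs.

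**Figure D1:**
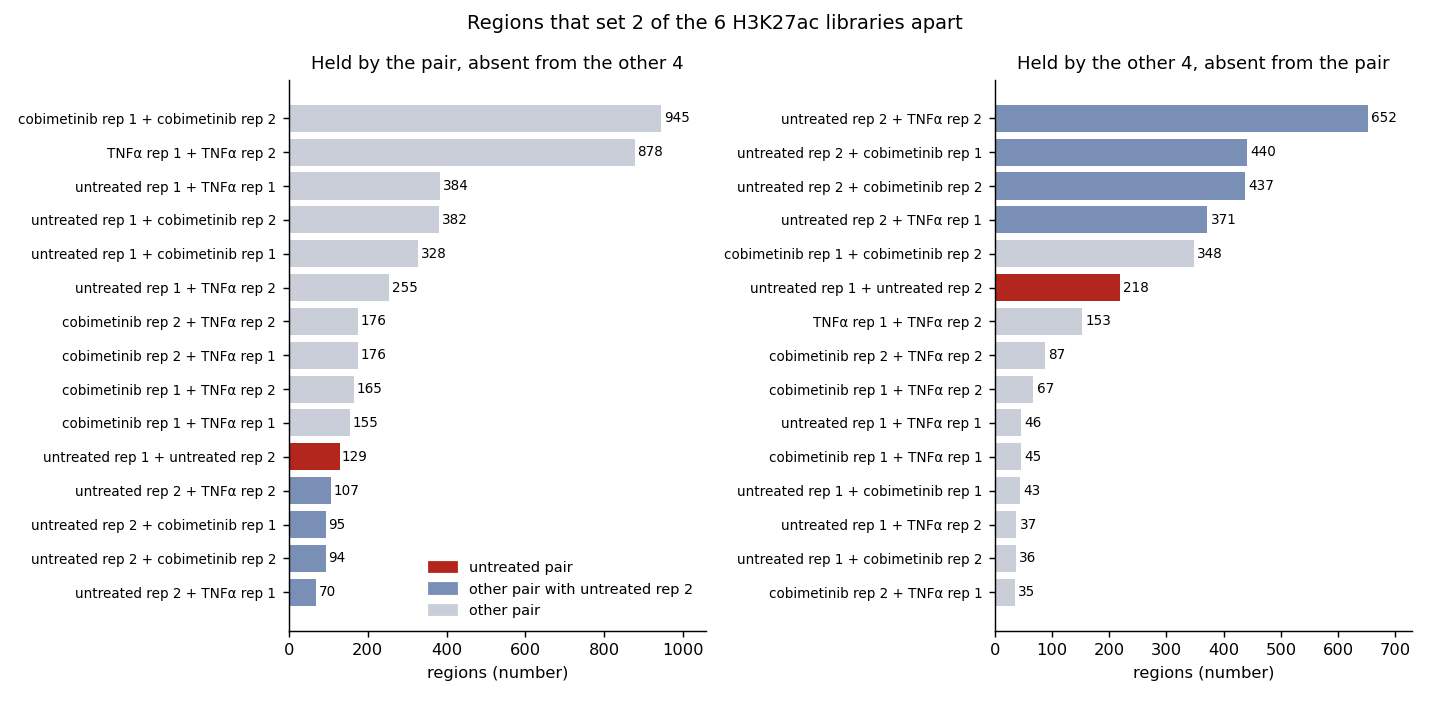
Number of regions (x axis) held by 2 libraries and absent from the other 4 (left) or held by 4 and absent from the other 2 (right), for all 15 pairs of the 6 H3K27ac libraries (1 bar per pair). The untreated pair (red) gave 129 and 218 regions, with 10 and 5 pairs above it; pairs that hold untreated replicate 2 (blue) were low on the left and high on the right.

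Both counts moved with untreated replicate 2. Among the 5 pairs that hold this library, the untreated pair had the highest count of lost regions, with 70 to 107 in the other 4, and the lowest count of gained regions, with 371 to 652 in the other 4. Without this library a region has 1 condition fewer to meet, so every member stays in its set by definition. Untreated replicate 1 alone then held 1355 regions, which include the 129 shared lost regions. It alone lacked 331 regions, which include the 218 shared gained regions. Both were the lowest counts of the 5 remaining libraries, in which each treated library alone held 1396 to 1945 regions and alone lacked 559 to 981. Without untreated replicate 1 the counts were 7804 lost and 3397 gained. Leaving out a treated library, which likewise removes 1 condition a region must meet, gave 182 to 207 lost regions, the highest without TNFα replicate 1. It gave 343 gained regions without cobimetinib replicate 2, 370 without cobimetinib replicate 1, 386 without TNFα replicate 2 and 403 without TNFα replicate 1.

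The Jaccard index of whole peak sets was lowest for the untreated pair. This index is the base pairs covered by both libraries over those covered by either. It was 0.258 for the untreated replicates, the lowest of all 15 pairs. The peaks taken from untreated replicate 2 covered 10.2 Mb. Those of untreated replicate 1 covered 26.1 Mb, and those of each treated library 19.8 to 22.5 Mb. Unequal cover lowers the largest index a pair can reach, and most so for the untreated pair. The value of 0.258 therefore does not show that these replicates shared the least. Untreated replicate 1 had an index of 0.535 to 0.599 with the 4 treated libraries, while cobimetinib and TNFα libraries had 0.476 to 0.507 with each other. Replicates of cobimetinib had 0.583 and those of TNFα 0.591. The mean within the untreated and treated sides exceeded the mean across them by 0.0702 (one-sided exact permutation test, p = 0.333, adjusted p = 0.8), and 4 pairs, all with untreated replicate 2, gave a larger excess. Without untreated replicate 2 the difference was -0.03, so untreated replicate 1 was closer to the treated libraries than these were to each other on average.

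**Figure D2:**
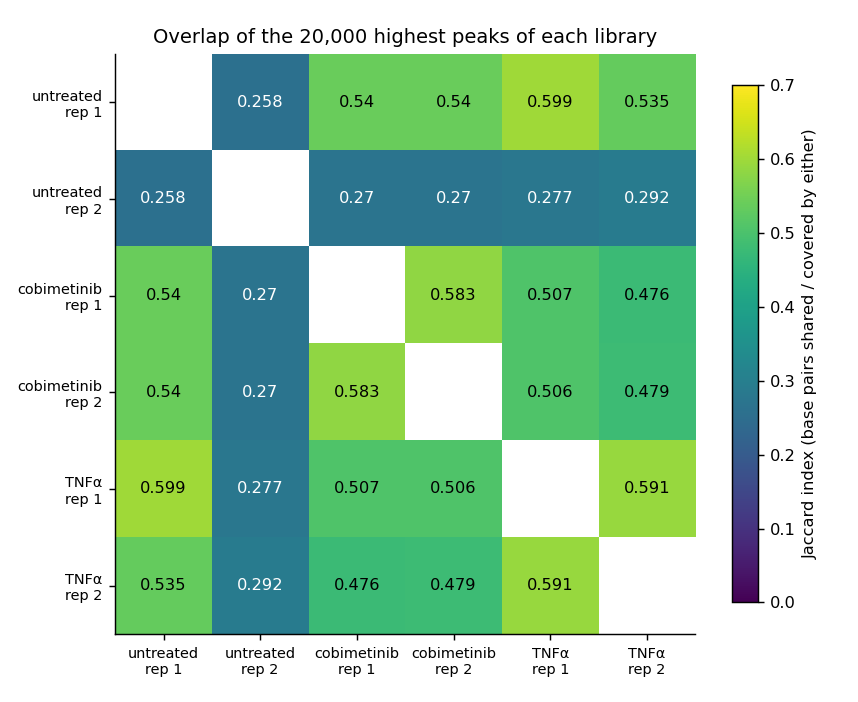
Jaccard index in base pairs (colour and number) between the 20000 highest H3K27ac peaks of each pair of the 6 libraries (both axes). Untreated replicate 2 lay between 0.258 and 0.292 with every other library, and untreated replicate 1 between 0.535 and 0.599 with the treated libraries.

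The members of both sets were mostly of middle or low rank in the libraries that held them, and most had a weaker peak in the libraries called absent. A rank of 1 is the highest score of a library. In the shared gained regions the median rank was 13442.5 and 12404 in the cobimetinib replicates and 14457 and 13432 in the TNFα replicates. Untreated replicate 1 had a deposited peak below the limit at 212 of the 218 regions, with a median rank of 23112.5, and 203 of these peaks ranked between 20001 and 40000. Untreated replicate 2 had a lower peak at 150 regions, with a median rank of 46338.5, and none at 68. Absence of these regions from untreated replicate 1 was therefore in most cases a peak between ranks 20001 and 40000. Over all 18784 regions that untreated replicate 1 lacked, 46% had a lower peak of that library. Among the 380 regions it lacked that exactly 4 other libraries held, the share was 93.7%, against 97.2% of the members. The 218 members are themselves most of these 380 regions, so the 2 shares are not independent. For untreated replicate 2 the share was 74.6% of 2118 such regions, which also include the members, against 68.8% of the members.

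In the shared lost regions the median rank was 15595 in untreated replicate 1 and 10959 in untreated replicate 2. The cobimetinib replicates had a lower peak at 112 and 100 of the 129 regions and the TNFα replicates at 114 and 102, with median ranks between 28185 and 31412. These are 77.5 to 88.4% of the members. Among the 2566 to 2758 regions each of these libraries lacked that exactly 2 others held, which include the members, 64.5 to 77.9% had a lower peak. No member of either set ranked within 5000 in all libraries that held it. All holding ranks were within 10000 for 3 gained and 5 lost regions. At least 1 holding rank was beyond 15000 for 178 gained regions (81.7%) and 85 lost regions (65.9%). A gained region has more holding libraries than a lost region, so these percentages cannot be compared with each other. Such shares were not counted for other regions held by as many libraries. Low holding ranks are therefore not shown to be particular to the members. The ratio of the best rank among absent libraries to the worst rank among holding libraries had a median of 1.41 in the gained and 1.48 in the lost regions, and it was at least 2 in 30 gained and 29 lost regions.

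**Figure D3:**
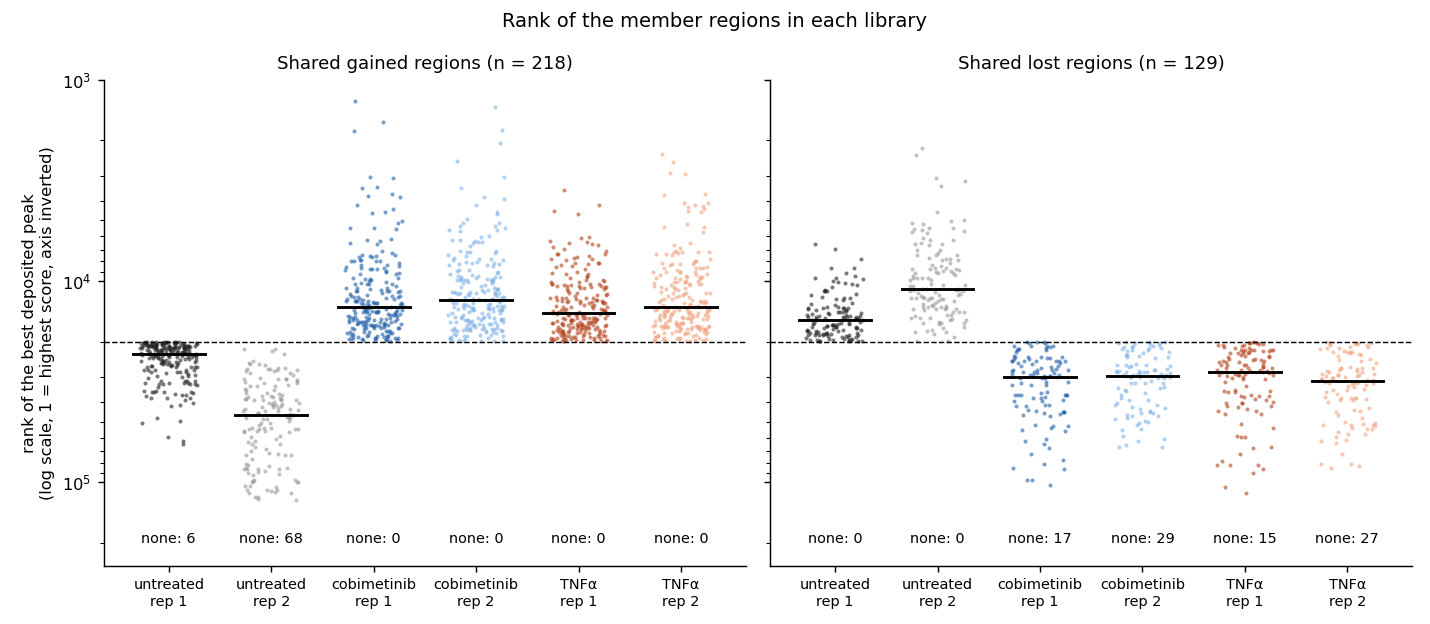
Rank of the best deposited peak (y axis, log scale, inverted so that high scores are at the top) of each shared gained (left, n = 218) and shared lost (right, n = 129) region in each of the 6 libraries; 1 point per region, black bars are medians, the dashed line is the limit of 20000 and the numbers below count regions with no peak. Untreated replicate 1 clusters just under the limit at the gained regions, with a median of 23112.5.

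The sets held a region just past the limit in 1 library as well as regions far from it. The start site of EHF, an epithelial ETS factor, was counted as gained with a rank of 20024 in untreated replicate 1, 27963 in untreated replicate 2, 15980 and 7552 with cobimetinib and 13486 and 17638 with TNFα. The start site of KIAA1522 was counted as lost with 17452 and 9630 in the untreated replicates, 20008 and 23579 with cobimetinib and 25406 and 21169 with TNFα. These were the members whose absence was closest to the limit. Ranks 19977 to 20343 of untreated replicate 1 all had the score at the limit, and 15 of the 218 gained regions had that score there. At EHF the absence from untreated replicate 1 was therefore set by file order. The worst rank of a holding library was 19936, in TNFα replicate 2 at an intergenic gained region nearest TRIM27, and 19984, in untreated replicate 1 at a lost region in an intron of SCMH1. Both peaks had the score at the limit of their library and were held through file order.

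The best-ranked shared gained region lay between coding genes on chromosome 12, at chr12:46552905-46553782, and its nearest coding start, 180132 bp away, was that of SLC38A2, a transporter of neutral amino acids. It is the first sequence shown above. Its ranks were 23352 and 28107 in the untreated replicates, 4395 and 7754 with cobimetinib and 7129 and 4493 with TNFα. A shared lost region lay on the same side of SLC38A2 at chr12:46489624-46490989, 116851 bp from its start, with ranks of 10302 and 5696 in the untreated replicates, 77136 and no peak with cobimetinib and 45718 and 37786 with TNFα. The nearest coding gene of a gained and a lost region was thus the same. EPS8, which encodes an actin-capping substrate of the EGF receptor, was another such gene, with a gained region at its start (20037 and 52211 untreated, 19706 and 17278 with cobimetinib, 18913 and 10447 with TNFα) and a lost region over an exon (10177 and 8626 untreated, 29998 and 40464 with cobimetinib, 26177 and 21850 with TNFα). At the EPS8 start, untreated replicate 1 and cobimetinib replicate 1 lay on either side of the limit with nearly equal ranks. The peak of untreated replicate 1 there had the score at the limit, so its absence was also set by file order.

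Other best-ranked gained regions also lay away from start sites. The region 63153 bp from the start of ITGA4, the integrin α4 subunit, ranked 32593 in untreated replicate 1, had no peak in untreated replicate 2, and ranked 3692 and 8863 with cobimetinib and 8105 and 4298 with TNFα. The region of 293 bp near the chromosome 16 centromere, at chr16:34586713-34587005, ranked 30425 in untreated replicate 1, had no peak in untreated replicate 2 and ranked between 4642 and 7818 in the treated libraries. Untreated replicate 2 thus had no peak in either region, and untreated replicate 1 had one beyond rank 25000. An intron of LASP1, an actin-binding protein, held a region with ranks of 21822 and 104039 untreated, 3058 and 6010 with cobimetinib and 10624 and 8999 with TNFα. An intron of SKAP1, an adaptor of T cell receptor signaling, held one with 26098 and 39104 untreated, 6248 and 5132 with cobimetinib and 10006 and 9293 with TNFα. In these introns and in an intergenic region 77250 bp from the start of MLLT10, a partner of the methyltransferase DOT1L (24206 and 41243 untreated, 1808 and 3820 with cobimetinib, 10849 and 11011 with TNFα), both cobimetinib ranks were better than both TNFα ranks. The reverse order was seen 21342 bp from the start of HYI (21109 and 24992 untreated, 15394 and 7251 with cobimetinib, 4505 and 2912 with TNFα). An intron of UBAP1, a subunit of the ESCRT-I complex of endosomal sorting, ranked 23194 in untreated replicate 1, had no peak in untreated replicate 2 and ranked 16518 and 5177 with cobimetinib and 7332 and 2351 with TNFα, where the treatments overlapped.

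Of the 218 shared gained regions, 65 lay within 1 kb of a coding start, or 29.8% (95% Wilson interval 24.1 to 36.2%, which covers counting error only). The start of NSMCE3, a subunit of the SMC5/6 complex, was far from the limit in both untreated replicates, with 35560 and 72545 untreated, 8741 and 3060 with cobimetinib and 10615 and 5400 with TNFα. Also among the best by rank were the start sites of FAM53B, DHRS7 and IL17RC, a receptor subunit for interleukin 17, where untreated replicate 1 ranked 20612, 20069 and 20197 and untreated replicate 2 ranked 69932, 59595 and 45301. In the treated libraries these 3 starts ranked between 3811 and 13826. At DHRS7 and IL17RC the peak of untreated replicate 1 had the score at the limit, so absence from this library was set by file order. The start of DSC3, a desmosomal cadherin, was the only start-site region of the gained set with no untreated peak within 40000, with 41603 in untreated replicate 1, none in untreated replicate 2, 11896 and 6250 with cobimetinib and 10628 and 9615 with TNFα.

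Gene lists were compared by whether a member region lay within 50 kb of a start. Over all 19329 coding genes, 1.73% had a shared gained and 1.25% a shared lost region within this distance, and over the 109 listed genes 4.59% and 2.75% did. These shares are not matched, because 16568 of all coding genes and 108 of the listed genes had any region within it. Of 12 genes induced by TNFα through NF-κB, 2 had a gained and 1 a lost region. Of 12 AP1 subunits and relatives, 2 had a gained and 0 a lost region, and of 12 intestinal identity genes 1 had a gained region. Of 12 integrated stress response genes 2, and of 12 p53 targets 1, had a lost region. None of 12 MAPK-induced genes, 12 Wnt targets, 12 interferon and MHC class I genes or 15 genes of the LTR10 loci that the study examined had a region of either set. Every gene of these 4 lists had at least 1 of the 38598 regions within 50 kb. At the shares of all coding genes, most lists of this size would have none either.

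The NF-κB genes with a gained region were NFKBIA, the inhibitor that NF-κB itself induces, and the chemokine gene CXCL2. The region at the NFKBIA start ranked 20932 in untreated replicate 1, had no peak in untreated replicate 2, and ranked 10920 and 8083 with cobimetinib and 10099 and 17070 with TNFα. The region in an intron of MTHFD2L, 17043 bp from the CXCL2 start, ranked 27620 and 31847 untreated, 14743 and 7059 with cobimetinib and 15504 and 8625 with TNFα. In both regions the cobimetinib and TNFα ranks overlapped. The AP1 members were JUNB, a JUN family subunit, and MAFK, a small MAF protein. The region 1092 bp from the JUNB start, in an intron of HOOK2, ranked 24743 and 26019 untreated, 19055 and 11291 with cobimetinib and 10633 and 15054 with TNFα. The region at the MAFK start ranked 21572 and 54156 untreated, 11202 and 10228 with cobimetinib and 16789 and 14017 with TNFα. Cobimetinib ranks were the better ones at MAFK and overlapped with TNFα at JUNB. The region 27354 bp from the start of KRT20, a keratin of differentiated intestinal epithelium, ranked 28762 and 73601 untreated, 14644 and 9394 with cobimetinib and 9079 and 8067 with TNFα, with both TNFα ranks better.

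The listed genes with a lost region had untreated ranks in the lower part of the 20000. The region 21885 bp from the start of TNFAIP2, a gene induced by TNFα, ranked 15057 and 19870 untreated and 24496 and 23956 in replicate 1 of cobimetinib and of TNFα, and replicate 2 of both had no peak. The region 18898 bp from TRIB3, a pseudokinase induced by the stress factor ATF4, ranked 14592 and 11206 untreated, 20247 and 29329 with cobimetinib and 22364 and 22639 with TNFα. The region at the start of ATP5IF1, the inhibitory factor of the mitochondrial ATP synthase, lay 23035 bp from SESN2, a sestrin that is on both the p53 and the stress response list. It ranked 15194 and 17899 untreated, 25562 and 28883 with cobimetinib, and 30997 in TNFα replicate 2, and TNFα replicate 1 had no peak. Ranks 17824 to 24925 of untreated replicate 2 all had the score at the limit. The regions near TNFAIP2 and SESN2 were therefore held by untreated replicate 2 only through file order.

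**Figure D4:**
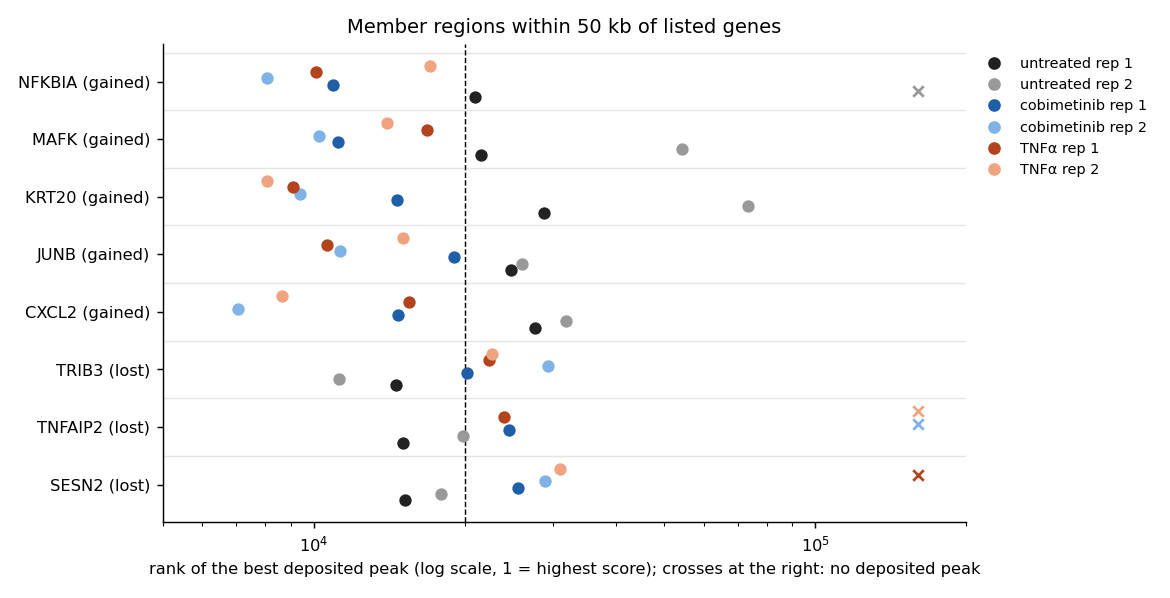
Rank of the best deposited peak (x axis, log scale) in each of the 6 libraries (colours) at the 8 member regions within 50 kb of a listed gene; crosses at the right stand for no peak and the dashed line is the limit of 20000. At the gained regions untreated replicate 1 ranked between 20932 and 28762, and at the lost regions its ranks were 14592 to 15194.

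The best-ranked shared lost regions were likewise distal. The region 48410 bp from the start of ADRA2C, the α2C adrenergic receptor, ranked 7748 and 3084 in the untreated replicates, 55811 and 36897 with cobimetinib and 35775 and 25616 with TNFα. The region 110454 bp from TNFRSF13B, a receptor of the TNF receptor family in B cells, ranked 6547 and 5473 untreated, had no peak in either cobimetinib library and ranked 25050 and 28190 with TNFα. The sequences of both are shown above, and the second was the one with an AP1 word. The region 12596 bp from FAM25C ranked 10163 and 2379 untreated, 25618 and 30392 with cobimetinib and 37286 and 54512 with TNFα. An intron of DST, a cytoskeletal linker protein, held a region with ranks of 9128 and 5575 untreated, 45429 and no peak with cobimetinib and no peak and 56035 with TNFα. No treated library had a peak within its 40000 highest at the DST region, which was so for 9 of the 129 lost regions. An intron of HIVEP3, a zinc finger protein, ranked 15019 and 2181 untreated, 24935 and 52166 with cobimetinib and 22121 and 34343 with TNFα.

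Start sites made up 44 of the 129 shared lost regions, or 34.1% (Wilson interval 26.5 to 42.6%). The region 103 bp from the start of KHK, ketohexokinase of fructose metabolism, ranked 13449 and 3190 untreated, 44979 and no peak with cobimetinib and 20461 and 24956 with TNFα. The start of SUOX, sulfite oxidase, ranked 12478 and 6114 untreated, 20094 and 21768 with cobimetinib and 45725 and 32226 with TNFα. The treated library nearest the limit was thus a TNFα library at KHK and a cobimetinib library at SUOX. The start of LARGE2, a glycosyltransferase that acts on dystroglycan, ranked 15426 and 3388 untreated and between 23791 and 52124 in the treated libraries. NUDT21, a subunit of the mRNA cleavage factor CFIm, shares its start with OGFOD1, and this region ranked 9632 and 10457 untreated, 22624 and 20057 with cobimetinib and 22906 and 34702 with TNFα. A second lost region lay nearby over exonic sequence within BBS2, a subunit of the BBSome of cilia, and OGFOD1, and ranked 8573 and 9840 untreated, 36910 and 32116 with cobimetinib and 20397 and 23140 with TNFα. These were the only 2 shared lost regions within 100 kb of each other. In the larger set of 218 shared gained regions there were 8 such pairs. Close pairs were not counted among other regions, so the sets cannot be compared in this. The start of LDHD, a D-lactate dehydrogenase, ranked 11664 and 8733 untreated and 26660 to 28275 in 3 treated libraries, with no peak in TNFα replicate 2.

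A stricter reading of absence left few regions. No absent library had a peak within its 40000 highest at 10 gained regions (4.59%) and 9 lost regions (6.98%), and the same counts were exceeded by 6 and 10 of the other 14 pairs (one-sided exact permutation p = 0.467 and 0.933). No absent library had any deposited peak at 2 gained regions and 1 lost region. The gained ones lay 3055 bp from the start of CDV3, with ranks of 9210 and 13565 with cobimetinib and 17243 and 14526 with TNFα, and in an intron of PSMB2, a catalytic-core subunit of the proteasome, with 19634 and 9485 with cobimetinib and 16099 and 12456 with TNFα. The lost one lay in an intron of TRPM3, a cation channel, with ranks of 17714 and 7020 in the untreated replicates. Further gained regions with no untreated peak within 40000 included an intron of MB21D2 (62371 and none untreated, 11171 and 13351 with cobimetinib, 4638 and 2557 with TNFα) and an intron of ANXA3, an annexin (64365 and none untreated, 16450 and 5560 with cobimetinib, 10402 and 4076 with TNFα). At both regions the TNFα ranks were better in replicate 2 than in replicate 1.

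Position and sequence of the members lay within the range of the corresponding regions of the other 14 pairs, though not within that of the 4 other pairs with untreated replicate 2 for 3 measures. The share at start sites was 34.1% for shared lost and 29.8% for shared gained regions, against 29.1% of all regions and 51.7% of regions held by all 6 libraries, and the corresponding shares ran from 8.77 to 40.8% and from 18.1 to 62.7% in the other pairs (two-sided exact permutation p = 0.533 and 0.667). The smallest two-sided p is 0.133, so a difference could not have passed 0.05. In the 4 other pairs with untreated replicate 2 the shares ran from 12.1 to 25.3% for regions held by the pair, all below the shared lost regions, and from 31.4 to 57.1% for regions absent from it, all above the shared gained regions. Without untreated replicate 1 these shares were 4.87% and 54.5%, and without untreated replicate 2 they were 28.4% and 28.7%. With 40000 peaks taken per library in place of 20000 they were 11.2% and 14.2%. The median width was 1275 bp for gained and 914 bp for lost regions, against 937 bp for all regions, 1629.5 bp for regions held by at least 4 libraries and 1785 bp for regions held by all 6.

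An AP1 word occurred in 78 of 153 distal gained regions (51%) and 45 of 85 distal lost regions (52.9%). It occurred in 37.1% of all distal regions, 64.2% of those held by at least 4 libraries and 68.1% of those held by all 6. The sets differ in width, so these shares are not matched. Per kb, distal gained regions held 0.571 and distal lost regions 0.809 AP1 words, against 0.632 in all distal regions. A control word of the same bases in another order (ACTCAGT or ACTGAGT) occurred 0.156 and 0.144 times per kb. The AP1 densities lay within those of the other pairs, which ran from 0.341 to 0.833 for regions absent from a pair and from 0.431 to 0.992 for regions held by a pair (two-sided exact permutation p = 0.667 and 0.8). Without untreated replicate 1 the density in lost regions was 0.223.

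The 10-letter NF-κB word, searched on both strands, occurred in 40 of 153 distal gained regions (26.1%) and 6 of 85 distal lost regions (7.06%), against 10.5% of all distal regions, 19.5% of those held by at least 4 libraries and 20.8% of those held by all 6. Its density was 0.27 per kb in gained regions, where a control word of the same bases had 0.171, and 0.0913 in lost regions, where the control had 0.235. All distal regions held 0.159 per kb. Of the other pairs, 1 exceeded the density of the gained regions and 12 exceeded that of the lost regions (two-sided exact permutation p = 0.267 and 0.4, adjusted p = 0.8 for both). In the 4 other pairs with untreated replicate 2 the density of regions absent from the pair ran from 0.116 to 0.18, all below the 0.27 of the shared gained regions. Without untreated replicate 2 the densities were 0.245 and 0.141, and the density in lost regions was 0.184 without TNFα replicate 2 and 0.0804 without TNFα replicate 1.

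**Figure D5:**
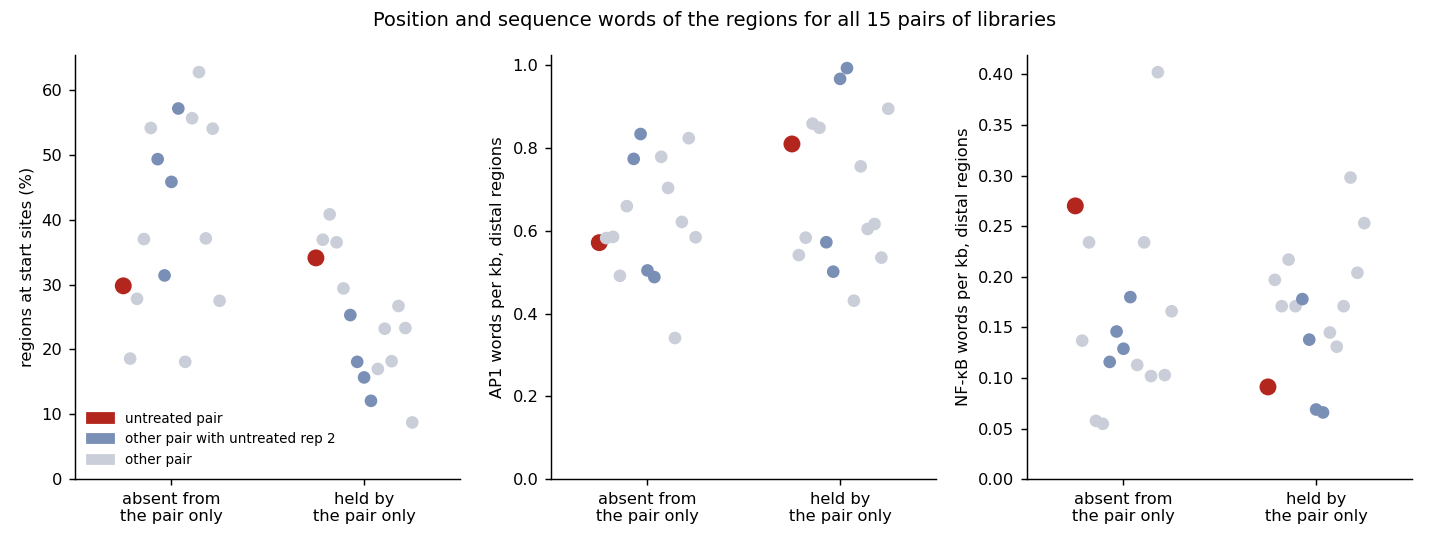
Share of regions at start sites (left), AP1 words per kb (middle) and NF-κB words per kb (right) in distal regions, for regions absent from a pair only or held by a pair only, with 1 point per pair of libraries and no error bars. The untreated pair (red) lay inside the range of the other pairs in all 6 columns, at 0.27 and 0.0913 NF-κB words per kb.

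The shared sets were from 14.4 to 33.3% of the regions lost or gained under each treatment. The 129 shared lost regions were 20.8% of the 619 regions lost with cobimetinib, 33.3% of the 387 lost with TNFα and 1.26% of all 10267 regions that the untreated pair held. The 218 shared gained regions were 14.4% of the 1512 gained with cobimetinib, 15.9% of the 1375 gained with TNFα and 1.91% of the 11410 regions held by all 4 treated libraries. Both comparisons use the same 2 untreated libraries, so an overlap between them was built into the counts and its size was not tested. Within the gained set, both cobimetinib ranks were better than both TNFα ranks at 53 regions (24.3%), the reverse held at 40 (18.3%) and the ranks overlapped at 125 (57.3%). Among all regions held by the 4 treated libraries these shares were 27.3% for cobimetinib and 23% for TNFα. The 8 pairs of gained regions within 100 kb of each other included the FKBP5 locus, which encodes a glucocorticoid-induced co-chaperone, the CRY2 locus of the circadian clock and the keratin locus, where 1 of the paired regions is the one described near KRT20, whose nearest coding start is that of KRT12, and the other is nearest KRT23.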

How the data were processed

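H3K27ac CUT&RUN peak lists of 6 HCT116 libraries were used. Per the study's methods, the authors trimmed reads with BBDuk, aligned them to hg38 with BWA 0.7.15, filtered them for mapping quality and called peaks in each library with MACS2 2.1.1 at a p-value of 0.01 without IgG, in paired-end and single-end mode. They merged both lists of a library and kept the higher score. The score deposited by the authors rises with depth, so it served only to rank peaks within a library, with ties in file order. The 20000 highest peaks were merged within 100 bp, after the rule of the study. An overlap of 1 bp counted as held.

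Counts, similarity, start-site shares (GENCODE 44, 1 kb) and word densities were compared by exact permutation over the 15 ways of drawing 2 of 6 libraries, and 9 tests were adjusted together (Benjamini-Hochberg). No read counts entered, so single regions have no test. Regions named were the 10 ranked best on average by their holding libraries in either set, the 5 best at start sites, the 5 best without a peak in any absent library, and all within 50 kb of a listed gene; others (the regions at the limit, EHF, KIAA1522, SCMH1, TRIM27, DSC3, MB21D2, ANXA3, the EPS8 start, neighbouring pairs and the chromosome 10 satellite region) were chosen after their values were seen. Members, lists and tests were chosen with earlier results of these data known. Alternatives were the number of peaks, merging, overlap, absence, ties, width, distance, control words, replicate block and each library left out. The counting was checked on planted regions. Python 3.11.15, numpy 2.4.6 and pysam 0.24.0 were used. The 6 IgG libraries were not analysed here. 1 named region is not reported here.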

Additional observations from a re-analysis of the deposited data

How the results depend on the processing

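No alternative brought a permutation p to 0.05, which the design could not reach. The number of shared lost regions was 312 with the 40000 highest peaks, 2303 with all deposited peaks and 54 where peaks had to cover 50% of a region. It was 9 where absence meant the 40000 highest peaks, 1 where it meant all deposited peaks, and 182 to 7804 with each library left out. Shared gained regions numbered 420 with all deposited peaks, 10 and 2 under these readings of absence and 331 to 3397 with each library left out. The excess similarity ran from -0.03 to 0.246, negative without untreated replicate 2. With each library left out, start-site shares ran from 4.87 to 38.2% (lost) and from 25.4 to 54.5% (gained), and both changed side of the other pairs' median without untreated replicate 1. They were 49.7% (lost) and 34.5% (gained) with 10000 peaks and 11.2% and 14.2% with 40000. AP1 words per kb changed side in lost regions with 10000 peaks (0.58), for the control word (0.144) and without untreated replicate 1 (0.223), cobimetinib replicate 1 (0.724) or 2 (0.739), and in gained regions with 10000 (0.71) and 40000 peaks (0.662) and without cobimetinib replicate 1 (0.656) or 2 (0.735). With each library left out they ran from 0.223 to 0.849 (lost) and from 0.549 to 0.735 (gained). NF-κB words per kb changed side in lost regions with 40000 peaks (0.145), for the control word (0.235) and without TNFα replicate 2 (0.184), and in gained regions with 10000 peaks (0.146). With each library left out they ran from 0.0804 to 0.184 (lost) and from 0.22 to 0.275 (gained). The cause of these shifts was not tested. Another merging distance, treatment of ties or common width left both counts within 1.5 times.

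Differences between replicates 1 and 2 in log10 rank correlated by 0.0309 to 0.0875 between conditions over 18053 regions. All these correlations were low but positive, so they cannot exclude that equal replicate numbers pair the libraries. With a replicate block (9 ways) the exact permutation p was 0.778 for lost and 0.444 for gained counts, 0.333 for similarity, 0.444 and 0.889 for start-site shares, 0.889 and 0.667 for AP1 and 0.444 for both NF-κB densities, and no call changed.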
